A study of Homo sapiens with 42 samples.

Results

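The proteasome is the protease complex that degrades ubiquitin-tagged proteins in the cytoplasm and the nucleus of every cell. Its barrel-shaped core holds the catalytic sites, a regulatory cap unfolds the substrates and removes their ubiquitin, and separate activators, an inhibitor and assembly chaperones bind the core or its intermediates. Cells exposed to interferon replace the constitutive catalytic subunits by inducible ones, which changes the peptides made for presentation on class I molecules.

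The genes described here are the 49 protein-coding genes of GENCODE 29 whose symbols start with PSMA, PSMB, PSMC, PSMD, PSME, PSMF or PSMG, of 42145 genes with an entry. They were chosen by symbol and not by any measured value. Of the 49, 35 reached a mean of 10 estimated reads per library in at least 1 of the 3 deposited tables and 31 did so in all 3. The numbers tested were 32, 34 and 32 in the LM2, knockdown and T4 tables, against 7597, 8271 and 6882 genes in all. The 17, 15 and 17 members under that mean entered no test.

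The libraries are QuantSeq REV libraries, which are primed at the poly(A) tail and so count the 3′ ends of transcripts, from the breast cancer line MDA-MB-231. The first table compared LM2 cells, labelled as highly metastatic to the lung, with Par cells, labelled as poorly metastatic, each in nuclear and cytoplasmic RNA. The second compared knockdown of HNRNPC, an RNA-binding protein (gHNRNPC), with a control (gCTRL) in poorly metastatic MDA-MB-231 cells, again in nuclear and cytoplasmic RNA. The third compared LM2 cells treated with the compound T4 at 3 µM with LM2 cells that received the same volume of DMSO, in total RNA; exposure lasted 6 h, and harvest was at 6, 24 or 72 h. There were 42 libraries in 14 groups of 3. The labels state neither how HNRNPC was depleted, nor the number of clones, nor that replicates were separate cultures, and a p-value here covers no more than the spread among these libraries, which may be technical. Levels are in CPM, reads scaled to a common library size by edgeR's trimmed mean (TMM). Differences are on the log2 scale ± the standard error from edgeR, and a difference is called past the threshold when the Benjamini-Hochberg adjusted p over all genes of the table is under 0.05.

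Markers were listed as high or low in the line for this check, since the labels give no marker levels. Those listed as high, VIM, CD44, AXL and CAV1, had reads in every library, between 21.4 and 1878 CPM. Of the epithelial and hormone receptor genes listed as low, ESR1, PGR and CDH1 stayed at or under 1.67 CPM and EPCAM at or under 16.8 CPM. Depth was 0.798 to 2.3 M reads. In 3 libraries the TMM factor stood apart from the others of its table: the second nuclear library of LM2 cells (0.714), that of Par cells (0.725), against 0.985 to 1.19 in the rest of that table, and the third T4 library at 6 h (0.498, against 0.856 to 1.42). In that T4 library PSMA5, PSMB3, PSMB8 and PSMD14 were listed at 0 and the summed level of the members was 9354 CPM, against 6941 and 6848 CPM in the other T4 libraries at 6 h. Counts of members past the threshold are given with and without these libraries.

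Because the libraries count 3′ ends, the letters just before the end of the most used transcript were read for the members that changed below. They are shown with the polyadenylation hexamer AATAAA in capitals where a copy lies in the last 30 bases (GENCODE 29 transcripts on GRCh38, 5′ to 3′). PSMB8, PSMB10 and PSMB5 encode catalytic subunits, PSMC6 and PSMD14 parts of the cap, PSMF1 the inhibitor and PSME1 an activator.
PSMB8: gaagtttctgggtgccccactaagtagaat
PSMB10: gggggAATAAAcccagaaaatacagttaaa
PSMB5: tggatgttaacattacactactcactactc
PSMC6: ttgAATAAAatctgtttgattcagttctcc
PSMD14: tcacttacaaAATAAAatacatttacagtc
PSMF1: cAATAAAcatcagcactaagtgacctgttc
PSME1: gcacAATAAAtatagttataccactgccca

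The last 20 letters of the ends of PSMB8, PSMB5, PSMC6, PSMD14, PSMF1 and PSME1 occur in transcripts of no other GENCODE gene, and those of PSMB10 in 1 other gene on the same strand. The leading ends of PSMB8, PSMB10 and PSMD14 belong to transcripts annotated as retained introns and that of PSMC6 to a processed transcript. They lie 21, 0, 2 and 1 bases from the nearest end of a coding transcript of PSMB8, PSMB10, PSMD14 and PSMC6. PSMA4 was counted at an entry listed by position, which held 97.9 to 99.0% of its reads in the 3 tables, so its values rest on the assignment of that entry to the gene. Entries whose value was not whole in at least 1 library held 98.6% (LM2 table), 98.2% (knockdown) and 97.7% (T4) of the PSMC3IP reads, and in the same order 34.4, 26.2 and 74.3% of the PSMD5 reads and 18.8, 10.8 and 37.8% of the PSMB2 reads, and the values of these 3 genes are uncertain. Over all members whose leading entry was a tested transcript end, AATAAA or ATTAAA lay in the last 50 bases of 73.7, 76.2 and 70.0% in the LM2, knockdown and T4 tables, against 65.3, 65.7 and 62.9% of all such genes.

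The members that fell under the mean of 10 include subunits that every proteasome contains. PSMA1, PSMB1, PSMB4 and PSMC1, and the assembly chaperone gene PSMD9, had at most 8 reads in any of the 42 libraries, and PSMA2, PSMA3, PSMA6, PSMC2 and PSMC4 were also not tested. A low value here is therefore the value of the annotated ends that were counted and not a measure of the gene's transcription. The inducible catalytic subunit gene PSMB9 had 0 to 7 reads in a library, and its highest values were in nuclei of the knockdown table, with 2, 6 and 7 reads in gHNRNPC libraries and 4, 6 and 6 reads in gCTRL libraries. The activator gene PSME2 had 4 to 13 reads in each of the 6 gHNRNPC libraries and 1 to 7 reads in each of the 6 gCTRL libraries, and was not tested.

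Nuclear RNA was first set against cytoplasmic RNA. In each of the 4 cell types most of the members past the threshold were lower in the nucleus: 13 of 19 in LM2 cells, 12 of 14 in Par cells, 14 of 17 in gHNRNPC cells and 19 of 21 in gCTRL cells. The share past the threshold over all genes was 54.5, 47.1, 55.9 and 63.5%, and over the members 59.4, 43.8, 50 and 61.8%, so the number of members past it was near the background. Their direction was lower more often: 24.1, 22.7, 25 and 30.8% of all genes were lower and 30.4, 24.4, 30.9 and 32.7% higher. The median over the members was −0.18, −0.38, −0.54 and −0.65, against 0.20, 0.06, −0.02 and −0.04 over all genes.

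The inhibitor and 2 activators were lower in the nuclei of all 4 cell types. PSMF1 encodes the inhibitor PI31 (chromosome 20, 1113263 to 1189415, + strand). It was at 50.2, 42.1 and 55.3 CPM in LM2 nuclei, against 112, 137 and 150.2 CPM in LM2 cytoplasm. In gCTRL cells it was at 38.2, 27.9 and 19.3 CPM in nuclei, against 84.6, 88.7 and 81.1 CPM in cytoplasm. The fractions did not overlap in any of the 4 cell types, and the differences were −1.43 ± 0.18 in LM2, −1.35 ± 0.18 in Par, −1.37 ± 0.23 in gHNRNPC and −1.57 ± 0.24 in gCTRL cells. PSME1 and PSME3, which encode the PA28 alpha and gamma activators, had differences of −0.88 to −1.38 and −0.95 to −1.33, again with no overlap in any cell type. PSME4, the gene of the PA200 activator, was tested in the knockdown table alone and did not pass the threshold there.

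The genes of the core's assembly chaperones followed the same direction. PSMG1 was at 21.4, 48.1 and 45.5 CPM in LM2 nuclei, against 121, 90.9 and 90.3 CPM in LM2 cytoplasm, with differences of −1.39 ± 0.27, −1.47 ± 0.26, −1.35 ± 0.24 and −1.71 ± 0.25 in LM2, Par, gHNRNPC and gCTRL cells. PSMG3 fell by 0.97, 1.00, 0.74 and 0.79 in the same order. PSMG2 was lower in LM2, gHNRNPC and gCTRL cells (−1.62, −2.07 and −1.22), and in Par cells was at −0.72 (adjusted p = 0.082). PSMG4 was tested in the knockdown table alone and was not past the threshold.

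Among the catalytic subunits, PSMB7 and PSMB10 were lower in the nuclei of all 4 cell types, PSMB5 in LM2, Par and gCTRL cells, and PSMB6 in none. The PSMB5 call was lost in 5 of 16 alternative settings in LM2 cells and in 2 of 16 in Par cells. PSMB7 was at 310, 746 and 559 CPM in LM2 nuclei, against 956, 1018 and 1021 CPM in LM2 cytoplasm (−0.89 ± 0.28, adjusted p = 0.019). PSMB8 went the other way in LM2 cells, with 43.8, 42.1 and 43.4 CPM in nuclei, against 13.1, 19.3 and 12.2 CPM in cytoplasm (1.53 ± 0.25, adjusted p = 0.00029). The LM2 fractions did not overlap for PSMB8, and in Par, gHNRNPC and gCTRL cells its differences of 0.60, 0.42 and 0.32 were not past the threshold. Of the core's structural genes, PSMB2 fell in gHNRNPC and gCTRL cells (−1.39 and −1.12), PSMA4 and PSMA5 in gCTRL cells (−0.68 and −0.94), and PSMA7 in Par and gCTRL cells (−0.79 and −1.06), the Par call being lost in 10 of 16 alternative settings. PSMB3 was higher in LM2 nuclei (0.74 ± 0.29, adjusted p = 0.048), a call that was lost in 13 of 16 alternative settings, among them leaving out any LM2 library but the second nuclear one.

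The genes of the cap divided by subunit. The ubiquitin receptor gene PSMD4 was lower in all 4 cell types (−1.07, −0.91, −1.05 and −1.53 in LM2, Par, gHNRNPC and gCTRL), and so was the lid gene PSMD7 (−1.13, −0.91, −1.32 and −1.54). PSMD2, a scaffold of the base, was lower in LM2, gHNRNPC and gCTRL cells (−0.57, −0.54 and −0.87), and the ATPase gene PSMC5 in gHNRNPC and gCTRL cells (−0.45 and −0.55). The gHNRNPC call for PSMC5 was lost in 4 of 15 alternative settings. PSMC3 fell in gCTRL cells (−0.57) and in the other cell types was between −0.03 and 0.06. The lid gene PSMD13 ran against these: it was at 736, 593 and 537 CPM in LM2 nuclei, against 236, 243 and 277 CPM in LM2 cytoplasm (1.30 ± 0.18), and was higher by 0.83, 0.45 and 0.55 in Par, gHNRNPC and gCTRL cells. The gHNRNPC call for PSMD13 was lost in 12 of 15 alternative settings. PSMD13 overlaps SIRT3 and AC136475.10 on the opposite strand. The strand used for counting is not given in the sources used here, so reads cannot be told apart where the genes overlap. Overlap was taken over whole gene spans, and whether it reaches the counted 3′ end was not tested. The same limit holds for every member that overlaps a gene on the opposite strand. Among them are PSMF1, PSME1, PSME3, PSMC3IP, PSMC5, PSMD1, PSMD7, PSMD14, PSMG2 and PSMG3.

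PSMD1, a scaffold of the base, was higher in nuclei of LM2, Par and gHNRNPC cells (0.76, 0.65 and 0.63), calls that were lost in 4 of 16, 7 of 16 and 5 of 15 alternative settings. PSMD14, the lid's deubiquitinase, was at 63.0, 48.1 and 41.3 CPM in LM2 nuclei, against 25.0, 18.1 and 9.42 CPM in LM2 cytoplasm (1.54 ± 0.39, adjusted p = 0.0061), and in the other cell types was not past the threshold. PSMC6, an ATPase gene, was higher in LM2 nuclei (0.60 ± 0.14). The reads of the lid genes PSMD8 and PSMD3 could not be kept apart from those of other entries, and their values are uncertain. PSMD8 was higher in gHNRNPC and gCTRL nuclei (1.28 ± 0.42 and 1.43 ± 0.41). In the LM2 table the PSMD8 differences were the largest of any member, 2.27 in LM2 and 2.52 in Par cells, and not past the threshold. They rested on the second nuclear libraries, where PSMD8 was at 148 and 104 CPM, against 8.54 to 26.6 CPM in the other 4 nuclear libraries.

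PSMB6, PSMD5, PSMD6, PSMD10, PSMD11 and PSMD12 passed the threshold in none of the 4 cell types, the largest of their differences being 1.68 for PSMD11 in LM2 cells (adjusted p = 0.051). Of the 32 members tested in both tables, 10 (31.2%) were lower in all 4 cell types, namely PSMB7, PSMB10, PSMC3IP, PSMD4, PSMD7, PSME1, PSME3, PSMF1, PSMG1 and PSMG3, and 1 (3.12%) was higher in all 4, PSMD13. Over all 7374 genes tested in both tables these shares were 15.7 and 17.9%. PSMC3IP carries a proteasome symbol by its name alone and encodes a recombination factor. Of the 10, 9 kept their call in every alternative setting of all 4 comparisons, and PSMB10 lost its call in Par cells in 7 settings. Without both second nuclear libraries 7 members were higher and 14 lower in LM2 nuclei, with PSMD11 and PSMC5 added, and 3 higher and 13 lower in Par nuclei, with PSMB3 and PSMC5 added.

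**Figure D1:**
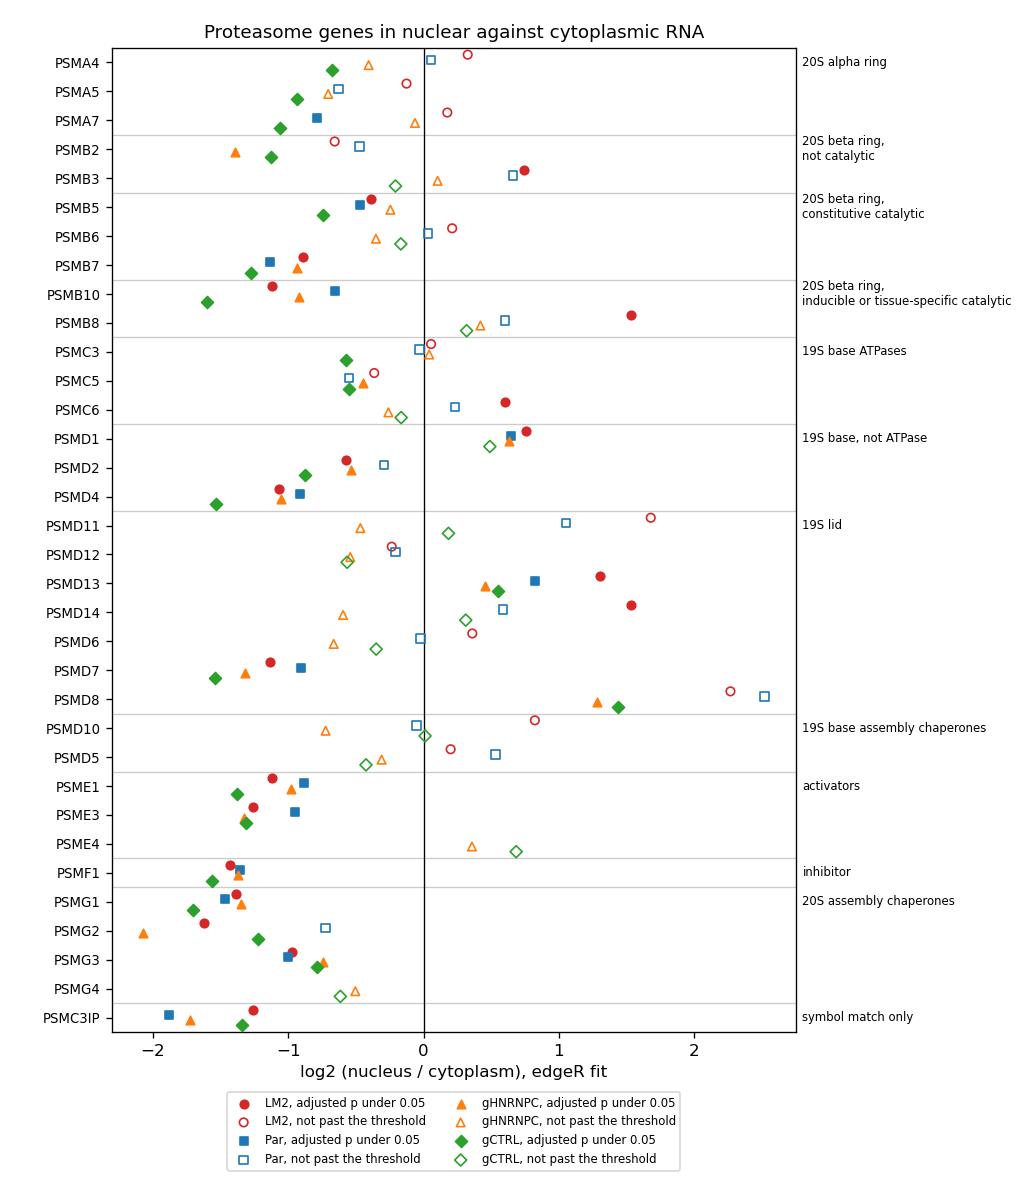
Difference of each tested proteasome gene between nuclear and cytoplasmic RNA (log2, edgeR fit, horizontal axis) in LM2, Par, gHNRNPC and gCTRL cells, ordered by role; filled symbols have an adjusted p under 0.05. PSMF1, PSMG1, PSME1 and PSME3 lie left of 0 in all 4 cell types and PSMD13 lies right of it.

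The fractions are relative to their own RNA, so a lower nuclear level is a smaller share of the reads and not fewer molecules per cell. The fraction markers were mixed. RPLP0, a ribosomal protein gene, had differences of −1.90, −1.89, −1.34 and −1.94 in LM2, Par, gHNRNPC and gCTRL cells, and MALAT1, a nuclear RNA, was higher in nuclei but reached at most 73.7 CPM. Mitochondrially encoded MT-ND4 was higher in nuclei, by 2.03, 2.53, 5.27 and 5.49 in LM2, Par, gHNRNPC and gCTRL cells, and its part in the members' differences was not tested. Genes of class I antigen presentation, taken as a list for comparison, were higher in nuclei for 7 of 7 tested in LM2 and in Par cells, 8 of 9 in gHNRNPC cells and 9 of 9 in gCTRL cells, with medians of 3.38, 3.72, 3.28 and 3.37.

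LM2 cells were then set against Par cells. In the cytoplasm 3 members were higher and 2 lower, which is 15.6% of 32 against 12.9% of all genes (4.45% higher and 8.41% lower). In the nucleus 1 was higher, which is 3.12% against 2.5% of all genes (1.3% higher and 1.2% lower). The members' median was −0.04 in cytoplasm and 0.08 in nuclei, against −0.02 and 0.02 over all genes. PSMA4, a subunit of the core's outer ring (chromosome 15, 78540405 to 78552419, + strand), passed the threshold in both fractions. It was at 199, 184 and 212 CPM in LM2 cytoplasm, against 131, 140.3 and 146 CPM in Par cytoplasm (0.51 ± 0.13, adjusted p = 0.026). In nuclei it was at 243, 266 and 238 CPM in LM2 cells, against 132, 153 and 148 CPM in Par cells (0.78 ± 0.13, adjusted p = 0.0063). The cell types did not overlap in either fraction. Almost all of these reads are at the entry listed by position, and with transcript ends alone PSMA4 could not be tested.

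PSMD2, the scaffold of the base (chromosome 3, 184298709 to 184309054, + strand), was at 1451, 1586 and 1571 CPM in LM2 cytoplasm, against 904, 849.6 and 979 CPM in Par cytoplasm (0.75 ± 0.15, adjusted p = 0.0093). PSMF1 was at 112, 137 and 150.2 CPM in LM2 cytoplasm, against 75.6, 65.4 and 81.7 CPM in Par cytoplasm (0.84 ± 0.17, adjusted p = 0.011). Every LM2 library was above every Par library for both genes. In nuclei the difference of PSMF1 was 0.77 (adjusted p = 0.053) and that of PSMD2 0.47 (adjusted p = 0.14).

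The 2 members that were lower in LM2 cytoplasm were PSMB8 and PSMD10. PSMB8, the inducible catalytic subunit (chromosome 6, 32840717 to 32844703, − strand), was at 13.1, 19.3 and 12.2 CPM in LM2 cytoplasm, against 29.1, 42.4 and 25.8 CPM in Par cytoplasm (−1.12 ± 0.24, adjusted p = 0.014). PSMD10, whose product gankyrin helps to assemble the base (chromosome X, 108084207 to 108091618, − strand), was at 16.2, 12 and 9.98 CPM in LM2 cytoplasm, against 30.8, 55.1 and 22.6 CPM in Par cytoplasm (−1.50 ± 0.39, adjusted p = 0.027). The cell types did not overlap for either gene. PSMB10, another inducible catalytic subunit gene, was at 99.3, 105 and 125 CPM in LM2 cytoplasm, against 83.6, 72.5 and 77.9 CPM in Par cytoplasm, also without overlap. It was not past the threshold, and was called higher with the cytoplasmic groups fitted alone. The largest difference was that of PSMD11, a lid gene, at −1.81 in cytoplasm (adjusted p = 0.080) and −1.19 in nuclei (adjusted p = 0.38), and it was not past the threshold.

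For PSMB8 the LM2 difference in nuclei was −0.19 (adjusted p = 0.85), and the difference between the nuclear and the cytoplasmic effect was 0.93 ± 0.34 (adjusted p = 0.44). By edgeR and by DESeq2 no member passed the test of that difference, and 0% of all genes passed it by edgeR. At an unadjusted p under 0.05 by edgeR there were 2 of 32 members, against 720 of 7597 genes. Of the other genes listed for comparison, SEM1, a small lid subunit (−1.33), ECPAS, a proteasome adaptor (−0.94), and VCP, the ATPase that extracts ubiquitin-tagged proteins (−0.67), were lower in LM2 cytoplasm. By list the calls there were 2 of 8 tested other proteasome components and associated factors, and 1 of 7 genes around the factor NFE2L1. They were 1 of 7 genes of class I antigen presentation and 0 of 11 of ubiquitin and shuttle factors, all calls being lower. Over all genes 12.9% passed the threshold in cytoplasm. With all library totals in place of TMM scaling no member passed the threshold in either fraction, and with the cytoplasmic groups fitted alone 16 did, 8 higher and 8 lower. Leaving out single cytoplasmic libraries ended the call of PSMA4 (any LM2 library, or Par library 1 or 2), PSMD10 (the same libraries), PSMB8 (LM2 library 1 or 3, or Par library 2) and PSMF1 (LM2 library 3 or Par library 2), and not that of PSMD2. The PSMD2 call was lost with transcript ends alone (adjusted p = 0.051), about as many of its reads being at a position entry (50.2%) as at transcript ends. Without both second nuclear libraries 8 members passed it in the cytoplasm, the 5 above and, all lower in LM2, PSMA5, PSMA7 and PSMD11. The summed level of 8 fibroblast and endothelial markers was 7.64 to 8.92 CPM in LM2 cytoplasm, against 0 to 1.52 CPM in Par cytoplasm, and 33.1 to 66.4 CPM in LM2 nuclei, against 0 to 1.85 CPM in Par nuclei. Nearly all of it was the collagen gene COL1A1, the defining genes COL3A1, DCN, LUM and CDH5 were at 0 in this table, and its part in the members' differences was not tested.

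**Figure D2:**
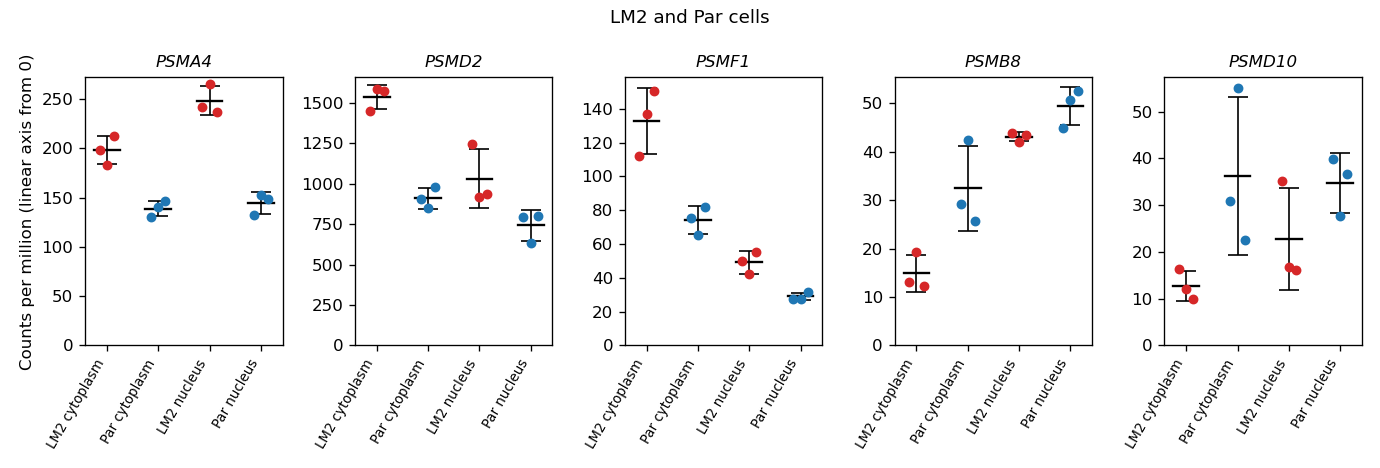
Level of PSMA4, PSMD2, PSMF1, PSMB8 and PSMD10 (CPM, linear axes from 0) in each LM2 and Par library; points are libraries, and bars the mean ± SD of 3. In cytoplasm PSMA4, PSMD2 and PSMF1 are higher and PSMB8 and PSMD10 lower in LM2 cells, with no overlap.

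After HNRNPC knockdown HNRNPC itself was at 96.5 ± 9.74 CPM in gHNRNPC cytoplasm, against 522 ± 25.4 CPM in gCTRL cytoplasm (SD, n = 3 each; −2.43 ± 0.20, edgeR adjusted p = 6.2e-09), and the difference in nuclei was −2.48 ± 0.20. It was not past the threshold in LM2 against Par cells (−0.33 in cytoplasm and −0.13 in nuclei) or after T4 (−0.18, −0.06 and 0.06 at 6, 24 and 72 h). In each fraction 3 of 34 members were past the threshold, all of them higher in gHNRNPC cells. That is 8.82%, against 25.8% of all genes in cytoplasm (10.2% higher and 15.5% lower) and 14.7% in nuclei (7.69% higher and 6.98% lower). The members' median was 0.11 in both fractions, against −0.08 and 0.00 over all genes.

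PSMB8 was the member with the largest difference in both fractions. It was at 66.0, 85.5 and 68.5 CPM in gHNRNPC cytoplasm, against 38.5, 19.6 and 42.7 CPM in gCTRL cytoplasm (1.12 ± 0.24, adjusted p = 0.0015). In nuclei it was at 90.8, 120.1 and 83.6 CPM in gHNRNPC cells, against 47.0, 34.8 and 44.8 CPM in gCTRL cells (1.22 ± 0.25, adjusted p = 0.0013). Every gHNRNPC library was above every gCTRL library in both fractions, and both calls held in all 15 alternative settings. PSMB8 overlaps PSMB8-AS1 and PSMB9 on the opposite strand. PSMB8-AS1 had 0 reads in all 42 libraries and PSMB9 at most 7, against 34 to 177 reads of PSMB8 in the libraries of this table. Since the strand used for counting is not given, these counts cannot show whether opposite-strand reads fell at the PSMB8 entry.

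PSMB10, the other inducible catalytic subunit tested (chromosome 16, 67934502 to 67937087, − strand), was at 72.5, 71.8 and 82.1 CPM in gHNRNPC nuclei, against 57.6, 35.5 and 38.6 CPM in gCTRL nuclei (0.78 ± 0.24, adjusted p = 0.028). In cytoplasm it was at 177, 106 and 147 CPM in gHNRNPC cells, against 108, 158 and 135 CPM in gCTRL cells (0.10 ± 0.21, adjusted p = 0.76). The groups did not overlap in nuclei and overlapped in cytoplasm. The constitutive catalytic genes PSMB5, PSMB6 and PSMB7, whose products give way to those of PSMB8, PSMB9 and PSMB10 in the inducible form, were not past the threshold, with differences of −0.26, 0.04 and −0.09 in cytoplasm and 0.24, −0.14 and 0.25 in nuclei. PSME1, a part of the interferon-inducible activator, had differences of 0.16 in cytoplasm and 0.56 in nuclei (adjusted p = 0.56 and 0.057).

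PSMB3, a structural subunit of the inner ring (chromosome 17, 38752736 to 38764231, + strand), was at 82.5, 89.7 and 72.6 CPM in gHNRNPC nuclei, against 42.6, 48.1 and 61.3 CPM in gCTRL nuclei (0.69 ± 0.21, adjusted p = 0.027). In cytoplasm the cap gene PSMC6 (chromosome 14, 52707172 to 52728587, + strand) was at 318, 297 and 342 CPM in gHNRNPC cells, against 232, 206 and 227 CPM in gCTRL cells (0.53 ± 0.17, adjusted p = 0.028). PSMD14 (chromosome 2, 161308038 to 161411717, + strand) was at 35.5, 35.2 and 27.5 CPM in gHNRNPC cytoplasm, against 22.8, 16.7 and 19.9 CPM in gCTRL cytoplasm (0.72 ± 0.25, adjusted p = 0.036). The groups did not overlap for any of the 3. By edgeR and by DESeq2 no member passed the test of the difference between the 2 fractions' effects, against 0.0242% of all genes by edgeR. By edgeR 4 of 34 members had an unadjusted p under 0.05, against 940 of 8271 genes. The largest of these differences among the members were PSMA7 at 1.00 and PSMD14 at −0.91 (adjusted p = 0.43 and 0.36). Outside PSMB8, the largest uncalled differences were those of PSMG4 (0.64 and 0.75 in cytoplasm and nuclei), PSMC3 in cytoplasm (−0.56, adjusted p = 0.055) and PSMB2 in nuclei (−0.65).

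The calls other than PSMB8 each depended on single libraries. Leaving out gHNRNPC library 1 or 3 or any gCTRL library ended that of PSMC6. That of PSMD14 was lost without gHNRNPC library 1 or 2 or gCTRL library 2 or 3, that of PSMB10 without gHNRNPC library 1 or 3 or gCTRL library 2 or 3, and that of PSMB3 without gHNRNPC library 1 or 2 or gCTRL library 1 or 2. Over these alternatives and the others run the adjusted p ranged from 0.0021 to 0.11 for PSMC6, 0.011 to 0.12 for PSMD14, 0.012 to 0.14 for PSMB10 and 0.015 to 0.16 for PSMB3.

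The lists set beside the members were chosen with earlier results of these data known. Of 9 tested genes of class I antigen presentation, 5 were higher in gHNRNPC cytoplasm, among them the peptide transporter TAP1 (2.08 ± 0.31), its partner TAPBP (0.69), HLA-C (0.91) and the transcription factor IRF1 (1.03), and the peptidase ERAP2 was lower (−0.81). In nuclei 4 of 9 were higher, among them HLA-B (0.79), HLA-C (0.76) and TAP1 (0.66). Of 7 tested genes around NFE2L1, the factor that induces proteasome genes when proteasome activity is low, NFE2L1 (1.37), NFE2L2 (0.94) and DERL1 (3.15) were higher and UFD1 (−0.86) lower in gHNRNPC cytoplasm, and NFE2L1 (0.98) and DERL1 (2.22) were higher in nuclei. UBE3C, a ubiquitin ligase bound to the proteasome, was lower in both fractions (−1.41 and −0.86). It was the only one past the threshold of 9 tested other proteasome components and associated factors, which is 11.1% in each fraction. Among the genes of ubiquitin and shuttle factors, of which 9.09% passed in each fraction, RPS27A was higher in nuclei (0.97).

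Markers of immune cells were read because PSMB8 and PSMB10 are abundant in them. The defining genes PTPRC, CD3E and LYZ stayed at or under 2.16 CPM in all libraries. The summed level of the 6 immune markers was 17.1 to 23.3 CPM in gHNRNPC cytoplasm, against 5.44 to 7.89 CPM in gCTRL cytoplasm, and 53.9 to 134 CPM in gHNRNPC nuclei, against 31.5 to 37.9 CPM in gCTRL nuclei. Most of it was CD68, a lysosomal protein gene (1.52 and 1.26), and its part in the PSMB8 and PSMB10 results was not tested.

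**Figure D3:**
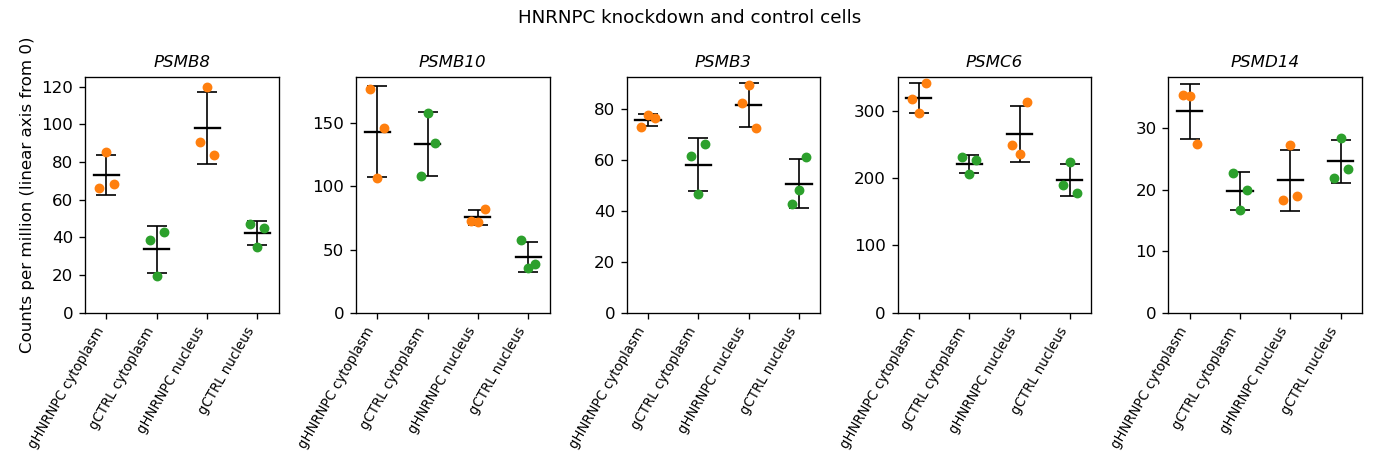
Level of PSMB8, PSMB10, PSMB3, PSMC6 and PSMD14 (CPM, linear axes from 0) in each gHNRNPC and gCTRL library; points are libraries, and bars the mean ± SD of 3. PSMB8 is higher in gHNRNPC cells in both fractions with no overlap, and PSMB10 and PSMB3 in nuclei.

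The sequences before the start of PSMB8 and PSMB10 are given because the 2 inducible subunit genes were both higher in gHNRNPC nuclei (RefSeq, GRCh38.p14, from 250 bases before to 50 after the start). PSMB8 is at chr6:32844630-32844929 and PSMB10 at chr16:67936801-67937100, both on the − strand. Capitals mark a match to TGANNNNGC, the core letters of the antioxidant response element, in PSMB8, and a match to GAAA, any 2 bases and GAAA, letters like those of the interferon-stimulated response element (ISRE), in PSMB10.
PSMB8: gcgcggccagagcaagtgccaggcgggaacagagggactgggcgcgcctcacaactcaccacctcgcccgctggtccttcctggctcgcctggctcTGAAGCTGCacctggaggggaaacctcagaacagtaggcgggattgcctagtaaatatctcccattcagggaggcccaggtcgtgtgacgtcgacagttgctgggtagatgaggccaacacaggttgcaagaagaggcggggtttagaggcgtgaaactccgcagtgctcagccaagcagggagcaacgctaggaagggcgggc
PSMB10: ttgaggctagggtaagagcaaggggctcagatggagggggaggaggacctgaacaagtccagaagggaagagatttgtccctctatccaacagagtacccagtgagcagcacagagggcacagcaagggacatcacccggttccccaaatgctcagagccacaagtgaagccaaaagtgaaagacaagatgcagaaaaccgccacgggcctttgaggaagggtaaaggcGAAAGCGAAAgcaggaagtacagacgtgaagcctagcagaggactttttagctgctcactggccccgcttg

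Of the 49 members 43 had a sequence in that set. On either strand, TGANNNNGC was found in 60.5% of them, against 42.1% of all 27305 sequences of the same length, CCAAT in 46.5% against 35.7%, GGAAGTG in 20.9% against 11.5%, and CTTCCGG, which can overlap it, in 32.6% against 10.7%. The ISRE-like letters were found in PSMA4, PSMB4, PSMB10, PSME1, PSME2 and PSMG4, which is 14.0% against 3.65%; it was added to the search after the values were seen. PSMB8 and PSMB9 held no such letters in this window. A match is a match of letters in this window and was not tested for binding.

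LM2 cells given T4 were compared with LM2 cells given DMSO at each harvest. At 6 h and at 24 h 1 of 32 members passed the threshold and at 72 h none did, which is 3.12, 3.12 and 0%, against 16.9, 6.16 and 0.305% of all genes. In bulk RNA, fewer cells of a kind and less RNA per cell cannot be told apart. The members' median was −0.01, −0.20 and 0.04 at 6, 24 and 72 h, against −0.08, 0.02 and −0.01 over all genes.

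At 6 h PSMG3, a chaperone of core assembly (chromosome 7, 1567330 to 1571005, − strand), was at 122, 133 and 99.7 CPM in T4 cells, against 211, 179.5 and 193 CPM in DMSO cells (−0.71 ± 0.18, adjusted p = 0.010). The groups did not overlap at 6 h. At 24 h it was at 159, 197 and 192 CPM in T4 cells, against 191, 225 and 211 CPM in DMSO cells, and at 72 h at 176, 152 and 184 CPM in T4 cells, against 145, 153 and 160.4 CPM in DMSO cells. The groups overlapped at 24 and 72 h. The T4 difference at 72 h minus that at 6 h was 0.87 ± 0.25 (adjusted p = 0.032), the only member past that test of 32, against 10.8% of all genes. That call was lost in 12 of 21 alternative settings, among them the replicate block (adjusted p = 0.051), the groups fitted alone (0.079) and leaving out any DMSO library of the 2 harvests. The call at 6 h was lost when the 2 groups were fitted alone and without a filter on low counts, with an adjusted p of up to 0.25.

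At 24 h PSMB5, the constitutive subunit with the chymotrypsin-like activity (chromosome 14, 23016543 to 23035230, − strand), was at 292, 266 and 277 CPM in T4 cells, against 478, 486 and 484 CPM in DMSO cells (−0.80 ± 0.18, adjusted p = 0.014). At 6 h it was at 432, 435 and 419 CPM in T4 cells, against 488, 462 and 463 CPM in DMSO cells, and at 72 h at 394, 369.6 and 369 CPM in T4 cells, against 429, 436 and 479 CPM in DMSO cells. T4 libraries were below DMSO libraries at every harvest, with an overlap at 6 h under median-of-ratios scaling and at 72 h under library totals. At 6 and 72 h the difference was not past the threshold (−0.13 and −0.25, adjusted p = 0.62 and 0.76). The difference between the T4 effects at 24 and 6 h was −0.66 ± 0.25 (adjusted p = 0.10), and by edgeR no member passed that test, against 10.1% of all genes, or the test of 72 against 24 h, against 0.174%. At an unadjusted p under 0.05 by edgeR there were 5 and 4 of 32 members in these 2 tests, against 1636 and 1189 of 6882 genes. DESeq2 called 4 and 2 members. The call at 24 h was lost without T4 library 2 at that time and without a filter on low counts, with an adjusted p of up to 0.068.

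The summed level of the 32 members was 5410, 5470 and 5456 CPM in T4 cells at 24 h, against 6358, 6777 and 6353 CPM in DMSO cells. At 6 h the sums were 6941, 6848 and 9354 CPM in T4 cells, against 6480, 6197 and 6232 CPM in DMSO cells, and at 72 h 5407, 4234 and 5024 CPM in T4 cells, against 4722, 4649 and 5281 CPM in DMSO cells. T4 libraries thus lay below DMSO libraries at 24 h, also with library totals and median-of-ratios scaling, and overlapped them at 72 h. At 6 h they lay above them, but below them with library totals (5938, 6046 and 4654 CPM in T4 cells, against 6587, 6219 and 6231 CPM in DMSO cells). At 24 h the ATPase gene PSMC5 was at 369, 486 and 485 CPM in T4 cells, against 757, 897 and 673 CPM in DMSO cells, with a difference of −0.80 ± 0.26 that was not past the threshold (adjusted p = 0.077). PSMG1 was at −0.68 (adjusted p = 0.085), PSMD14 at −0.88 (adjusted p = 0.21) and PSMD8 at 0.99 (adjusted p = 0.20).

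When the third T4 library at 6 h was left out, 6 members passed the threshold at 24 h, all lower: PSMA4, PSMB5, PSMB6, PSMC5, PSMD13 and PSMG1. With the 24 h groups fitted alone PSMA4, PSMB5, PSMC3, PSMC5, PSMD13, PSMD14 and PSMG1 were lower and PSMD8 higher. At 6 h, without that library, PSMG3 stayed lower and PSMB6 was higher. The largest differences at 6 h were otherwise those of PSMD3 (1.46, adjusted p = 0.10) and PSMD8 (1.09, adjusted p = 0.12). PSMD3 was at 79.3 CPM in the library that stands apart, against 19.6 and 12.7 CPM in the other T4 libraries, and PSMD8 at 276 CPM, against 111 and 105 CPM.

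At 72 h no member passed the threshold by edgeR or by DESeq2. By edgeR 1 of 32 members had an unadjusted p under 0.05, against 573 of 6882 genes. It was PSME1, at 33.8, 41.0 and 24.5 CPM in T4 cells, against 42.6, 54.6 and 47.5 CPM in DMSO cells. The largest differences were those of PSMA7 (0.68), PSMD6 (0.58) and PSME1 (−0.54). PSMB8 was at −0.28, 0.07 and −0.16 at 6, 24 and 72 h, PSMB10 at 0.35, −0.44 and −0.50, PSMB7 at 0.42, 0.02 and 0.11, PSMF1 at 0.01, −0.30 and −0.12, and PSME3 at 0.46, −0.30 and 0.40, none of them past the threshold. Of the genes listed for comparison UBA6, a ubiquitin-activating enzyme, was lower at 6 h (−1.11), and none was past the threshold in the lists around NFE2L1 or class I antigen presentation at any harvest.

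**Figure D4:**
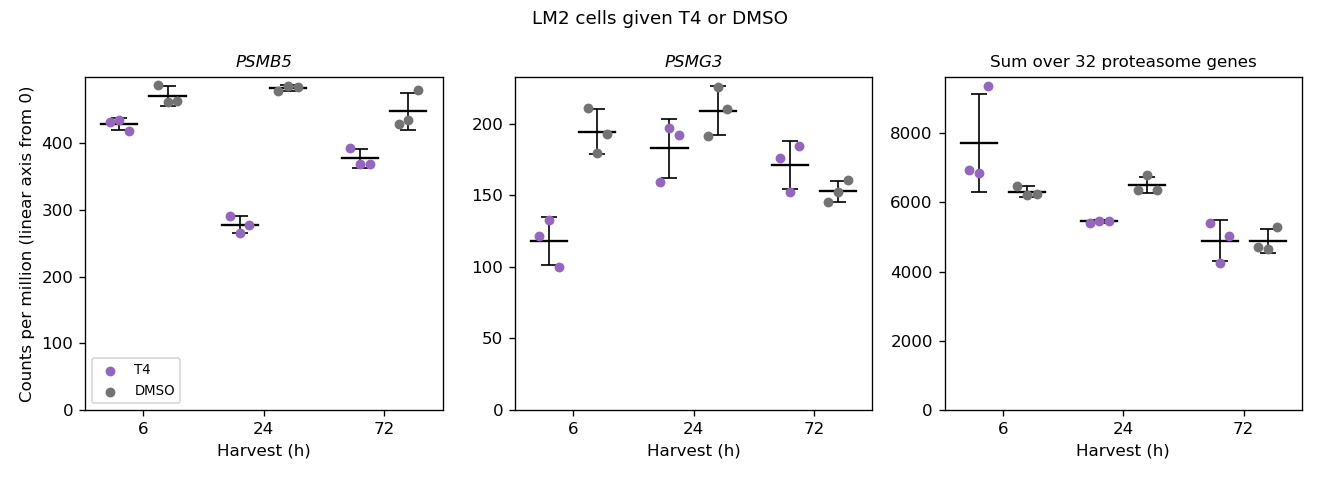
Level of PSMB5, of PSMG3 and of the sum over the 32 tested members (CPM, linear axes from 0) at 6, 24 and 72 h; T4 libraries stand left of DMSO libraries, and bars are the mean ± SD of 3. PSMG3 is lower at 6 h and PSMB5 at 24 h in T4 cells, and the 24 h sums do not overlap.

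The use of alternative 3′ ends could be tested for the members with 2 ends of a mean of at least 10 reads each, PSMB2, PSMD2, PSMD12, PSME3 and PSMF1 in the LM2 and knockdown tables and PSMD2, PSME3 and PSMF1 in the T4 table. Values are percent of the reads of the 2 most used ends that fell at the second of them. The order of these ends along the gene is not given, because 1 or both are listed by genomic position alone.

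PSME3 used its second end less in the nucleus. In LM2 cells it took 29.8, 25.3 and 39.5% in nuclei, against 55.8, 59.5 and 52.2% in cytoplasm (log2 ratio −1.45 ± 0.36, adjusted p = 0.0086). In gCTRL cells it took 42.6, 31.2 and 39.0% in nuclei, against 56.4, 64.3 and 55.6% in cytoplasm (−1.24 ± 0.36, adjusted p = 0.014). The fractions did not overlap in either. In Par and gHNRNPC cells the difference was −0.65 and −0.33 and not past the threshold (adjusted p = 0.23 and 0.63). With 1 of 5 members called in LM2 and 2 of 5 in gCTRL cells, and none in Par and gHNRNPC cells, the background over all genes tested for end use was 37.5, 29.3, 10.3 and 14%. The second member in gCTRL cells was PSMB2, with 63.2, 54.5 and 84.2% in nuclei, against 42.9, 37.2 and 25.0% in cytoplasm (2.01 ± 0.61, adjusted p = 0.019), on 11 to 19 reads in a nuclear library and 36 to 43 in a cytoplasmic one.

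PSMF1 was the member whose end use differed after knockdown. In cytoplasm its second end took 13.9, 18.7 and 20.2% in gHNRNPC cells, against 39.4, 38.4 and 27.7% in gCTRL cells (−1.34 ± 0.40, adjusted p = 0.033), on 150 to 188 and 138 to 148 reads in a library. The groups did not overlap, while its total level was 108, 80.2 and 86.6 CPM in gHNRNPC cytoplasm, against 84.6, 88.7 and 81.1 CPM in gCTRL cytoplasm (0.11 ± 0.21). In nuclei the end took 8.57, 18.5 and 13.7% in gHNRNPC cells, against 27.6, 10.3 and 21.7% in gCTRL cells, and these overlapped (−0.71, adjusted p = 0.63). This is 1 of 5 members in cytoplasm and none in nuclei, against 11.3 and 3.68% of all genes. The call in cytoplasm was lost with the replicate block, with ends of a mean of 50 or more, and without single libraries. No member's end use passed the threshold in edgeR, or an unadjusted p under 0.05, between LM2 and Par cells (0.467 and 0% of all genes in cytoplasm and nuclei) or after T4 (5.2, 2.35 and 0% at 6, 24 and 72 h).

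**Figure D5:**
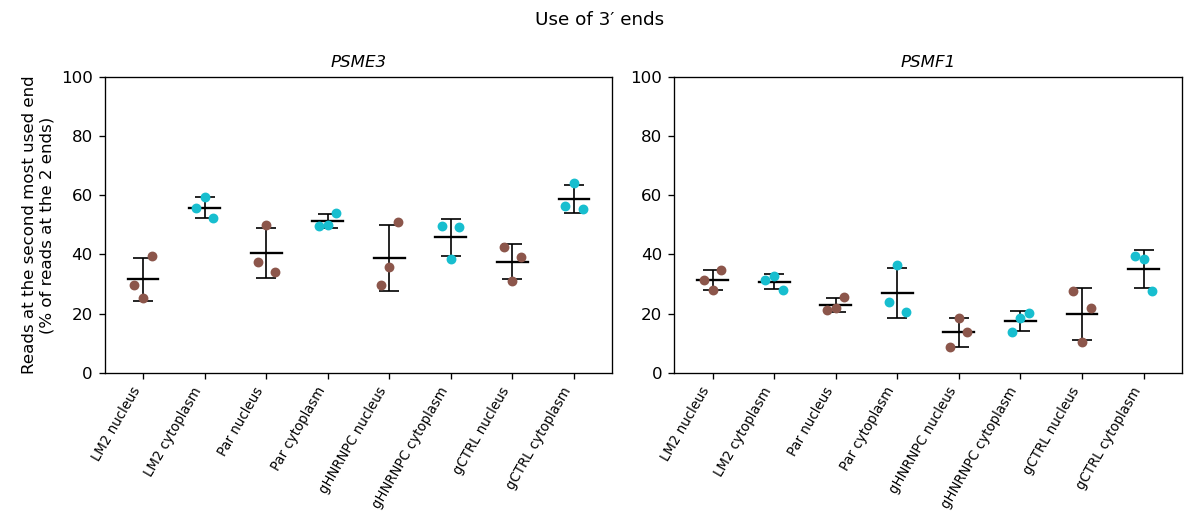
Percent of reads at the second most used of 2 ends of PSME3 and PSMF1 in each nuclear and cytoplasmic library; points are libraries, and bars the mean ± SD of 3. PSME3 is lower in LM2 and gCTRL nuclei than in their cytoplasm, and PSMF1 is lower in gHNRNPC than in gCTRL cytoplasm.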

How the data were processed

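The authors deposited estimated counts per transcript end or genomic position; Salmon 0.14.1 and hg38 are named, per the submitters' processing notes. Values were whole within 1e-06 in 98.3 to 98.8% of entries, whatever their names imply, so the deposited values were read as estimated (not normalised) counts and rounded. Of 94924 entries in a table, 71604 name a transcript and 23320 a position. GENCODE 29 held 66115 of the transcripts. Positions were added to the gene of the transcript listed above them, and entries were summed by gene. Reads of entries with no gene, 0.919 to 4.13% of a library, were left out. Position coordinates are not printed, since 9.79% lie within the GRCh38 span of their transcript.

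Genes with a mean of at least 10 reads in a table were tested with edgeR 4.0.16 (R 4.3.3; TMM scaling, robust quasi-likelihood fit over all groups of the table, Benjamini-Hochberg adjustment over all genes), in 16 comparisons. End use was tested for the 2 most used ends as an end-by-group interaction in 11 comparisons, with the same tool. The limma test planned for normalised values was not needed. The tests were checked on simulated data for LM2 against Par cytoplasm, knockdown in cytoplasm and T4 at 6 h. In that order, the expression test recovered 12, 54 and 34% of genes set to differ by 1 on the log2 scale. It recovered 76, 96 and 93% of those set to differ by 2. For end use the shares were 15, 17 and 26% at 1 and 80, 84 and 87% at 2. Most differences of 1 were thus missed, except by the expression test after knockdown. False calls were 1.32 to 5.94% of all calls. DESeq2 1.42.0, other scalings and filters, a replicate block, fits of the compared groups alone and leaving out each library were alternatives; those added after seeing the data are named in the closing section. The biological coefficient of variation was 36.3, 18.8 and 24.7% in the LM2, knockdown and T4 tables. No libraries were duplicates.

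Replicate numbers deviated together in LM2 and Par nuclei (r = 0.673, 0.791 and 0.204) and in T4 and DMSO cells at 72 h (0.357, 0.708 and 0.177), each above the minimum of 0.1 fixed for pairing, and not in the other group pairs; the labels do not say what a number marks.

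Membership was set by gene symbol alone. The choice of this gene group as a topic, and of the comparison lists, was made with earlier results of these data known. In each comparison every member past the threshold is named, or the 6 lowest and 6 highest where more than 12 passed, together with the 3 largest differences. The catalytic, activator, inhibitor, chaperone and PSMD14 genes are accounted for in nuclei against cytoplasm, and only in part in the other comparisons. Figures were drawn with matplotlib 3.10.9. Some genes of the comparison lists and some end sequences are not reported here.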

Additional observations from a re-analysis of the deposited data

Results flagged for a closer look

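PSMG3 was the member whose response to T4 differed between harvests by a test of the difference itself. The T4 difference at 72 h minus that at 6 h was 0.87 ± 0.25 on the log2 scale (edgeR adjusted p = 0.032), with T4 libraries below DMSO libraries in all 3 at 6 h and overlapping them at 72 h. The call was lost in 12 of the 21 alternative settings, the replicate block among them (adjusted p = 0.051).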

How the results depend on the processing

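No value past the threshold reversed; the untested sum over the members at 6 h of T4 lay above DMSO with TMM and below it with library totals. Values of members past the threshold stayed past it in 1182 cases under alternatives and not in 152. Counts of members past the threshold moved by over 1.5 times as follows; the causes were not tested. In LM2 against Par cytoplasm (5) they were 0 with library totals, 3 with transcript ends alone, 16 with the groups fitted alone, 17 with that and a replicate block, and 8 without both second nuclear libraries. In LM2 against Par nuclei (1) they were 0 with library totals, transcript ends alone or the groups fitted alone. In Par nuclei against cytoplasm (14) the block with the groups fitted alone gave 9. After knockdown the replicate block gave 1 in cytoplasm (3), as it did in both fractions with the groups fitted alone, in nuclei also against 3; the numbers do not pair these samples. For T4 at 6 h (1) there were 2 without a low-count filter, 5 by DESeq2, 0 with the groups fitted alone, with or without a block, and 2 without the library that stands apart. At 24 h (1) there were 2 with median-of-ratios scaling or library totals, 5 by DESeq2, 8 with the groups fitted alone, with or without a block, and 6 without that library. For 24 h minus 6 h (0) there were 4 by DESeq2 and 6 without that library; for 72 h minus 6 h (1), 2 with median-of-ratios scaling, no low-count filter, DESeq2 or without that library, and 0 with the block or the groups fitted alone; for 72 h minus 24 h (0), 1 with no filter or the groups fitted alone, 2 by DESeq2 and 3 without that library. Leaving out each library gave 1 to 5 in LM2 against Par cytoplasm, 1 in nuclei, 1 to 3 and 1 to 2 after knockdown in cytoplasm and nuclei, 1 to 2, 0 to 1 and 0 for T4 at 6, 24 and 72 h, 0 to 6, 0 to 2 and 0 for the T4 differences at 24 minus 6, 72 minus 6 and 72 minus 24 h, and 17 to 21, 11 to 13, 14 to 17 and 19 to 21 for nuclei against cytoplasm in LM2, Par, gHNRNPC and gCTRL cells. For end use, the PSMF1 call after knockdown became 0 members with ends of a mean of 50 or more or with the replicate block, and 0 to 1 without single libraries; in gCTRL nuclei against cytoplasm (2) there was 1 at a mean of 50, 0 with no filter on ends and 1 to 3 without single libraries; with no filter on ends Par nuclei against cytoplasm and T4 at 6 h gave 1 (0). The block with the groups fitted alone and the fit without the T4 library that stands apart were added after seeing the data. In the pairs of groups whose numbers do pair, LM2 and Par nuclei and the 72 h groups, the block changed no member's call in the fit over all groups. With LM2 and Par nuclei fitted alone no member was called, and with the block added PSMA4 was. The block ended the call of PSMG3 for T4 at 72 minus 6 h, where only the 72 h numbers pair.

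Scaling moved the share of higher genes among all genes past the threshold. With TMM, median-of-ratios and library totals it was 34.6, 53.0 and 38.1% in LM2 against Par cytoplasm, 39.8, 46.3 and 62.9% after knockdown in cytoplasm, 52.4, 54.0 and 40.8% in nuclei, and 19.4, 28.0 and 4.71%, 40.8, 30.3 and 22.9%, and 38.1, 36.8 and 63.6% for T4 at 6, 24 and 72 h. Library totals shifted the median of all genes by −0.39, −0.20 and 0.16 for T4 at 6, 24 and 72 h, and by 0.25, 0.55 and 0.36 for its 24 minus 6, 72 minus 6 and 72 minus 24 h differences. They shifted it by 0.21 after knockdown in cytoplasm, by −0.29 for that effect in nuclei minus cytoplasm, and by −0.16 and 0.13 for nuclei against cytoplasm in gHNRNPC and gCTRL cells. Median-of-ratios scaling shifted it by −0.13 for LM2 nuclei against cytoplasm and for the LM2 effect in nuclei minus cytoplasm, by 0.12 for LM2 against Par cytoplasm and by −0.15 for T4 at 24 minus 6 h. Members on few reads, such as PSMD10 and PSMD11, are limited by depth, and a p that misses the threshold does not show that groups are alike.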
